A study of Mus musculus with 4 samples.

Results

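Genes that mark B cell precursors or carry out V(D)J recombination were examined in lymphoma cells of λ-MYC Tom+/ki mice. The 10 genes were Rag1, Rag2, Dntt, Igll1, Vpreb1, Vpreb2, Vpreb3, Il7r, Spn and Cd93. They were chosen by name for their roles, with no threshold on a measured value but with earlier results of these data known. All 10 were found among the 34866 genes of the expression table. RNA-seq had been performed on splenocytes of 2 mice, each with an IgM+ Tom+ tumor (tumors #1 and #2), sorted by flow cytometry into B220+ IgM+ Tom+ and B220+ IgM+ Tom- cells. This gave 4 libraries, 1 of each kind per tumor. Both mice carried 1 λ-MYC transgene (λ-MYC +/TG), a human MYC gene under regulatory sequences of the immunoglobulin λ locus, together with a Cre knock-in allele (+/ki) and R26tdTom +/ki, a Cre-dependent tdTomato reporter in the Rosa26 locus. Tom+ cells are thus cells in which Cre has been active, or descend from such cells, and Tom- cells of the same mouse carry the same alleles without the recombined reporter. The labels name no treatment, the age of each animal is not in the sources used here, and cells of mice without the λ-MYC transgene were not analysed here. Because each tumor is 1 mouse, differences between the tumors describe these 2 animals.

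V(D)J recombination joins the gene segments of immunoglobulin genes in B cell precursors of the bone marrow. The recombinase of Rag1 and Rag2 cuts the DNA, and terminal deoxynucleotidyl transferase, the product of Dntt, adds nucleotides at the joints, mostly in pro-B cells. A rearranged heavy chain is first displayed with a surrogate light chain, made of the products of Igll1 and of Vpreb1 or Vpreb2, as the pre-B cell receptor. Signals from this receptor and from the interleukin-7 receptor (Il7r) drive precursor growth. A light chain later replaces the surrogate, and IgM reaches the surface. Vpreb3 is related to the Vpreb genes but is not part of the surrogate light chain, and its RNA is also found in mature B cells. Spn encodes CD43, a sialomucin of pro-B cells that is also found on activated B cells, plasma cells, T cells and myeloid cells, and Cd93 encodes AA4.1, a surface glycoprotein used to mark precursors and immature B cells.

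Values are TPM, the share of a library's transcripts that come from a gene after division by gene length, so that levels can be set side by side between genes. Read numbers cannot be recovered from TPM, which leaves the depth unknown and allows no counting interval. A gene listed at 0 therefore has no stated limit of detection. In the sorted cells, the B cell genes Cd79a and Cd79b were between 120 and 437 TPM, and Ighm was at 1255 TPM or more in every library. Of 16 T cell markers 9 were below 1 TPM in all 4 libraries, as were 8 of 14 myeloid, 8 of 8 NK cell, 6 of 8 erythroid and 9 of 10 stroma and endothelium markers. 1 library stood apart in 1 plasma cell gene: Jchain, which joins IgM or IgA into polymers, was at 209 TPM in tumor #2 Tom+ cells and at 0.330, 1.72 and 1.24 TPM in tumor #1 Tom-, tumor #1 Tom+ and tumor #2 Tom- cells. In bulk samples, fewer cells of a type and less RNA per cell cannot be told apart.

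The 10 genes ranged widely in level (plot of the levels by library). Igll1, Vpreb1, Vpreb2 and Dntt stayed below 1 TPM in all 4 libraries. Rag1 and Rag2 were listed between 0.196 and 4.43 TPM, Il7r, Spn and Cd93 between 4.39 and 15.1 TPM, and Vpreb3 between 46.7 and 242 TPM. In tumor #1 the values of Rag2 (0.196 and 0.295 TPM) were no higher than the highest value of Vpreb1 (0.306 TPM). Vpreb3 alone made up most of the summed TPM of the 10 genes, which was 105 in tumor #1 Tom-, 88.4 in tumor #1 Tom+, 285 in tumor #2 Tom- and 183 in tumor #2 Tom+ cells. In each library, between 94.1% and 98.6% of all listed genes had a lower TPM than Vpreb3.

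**Figure D1:**
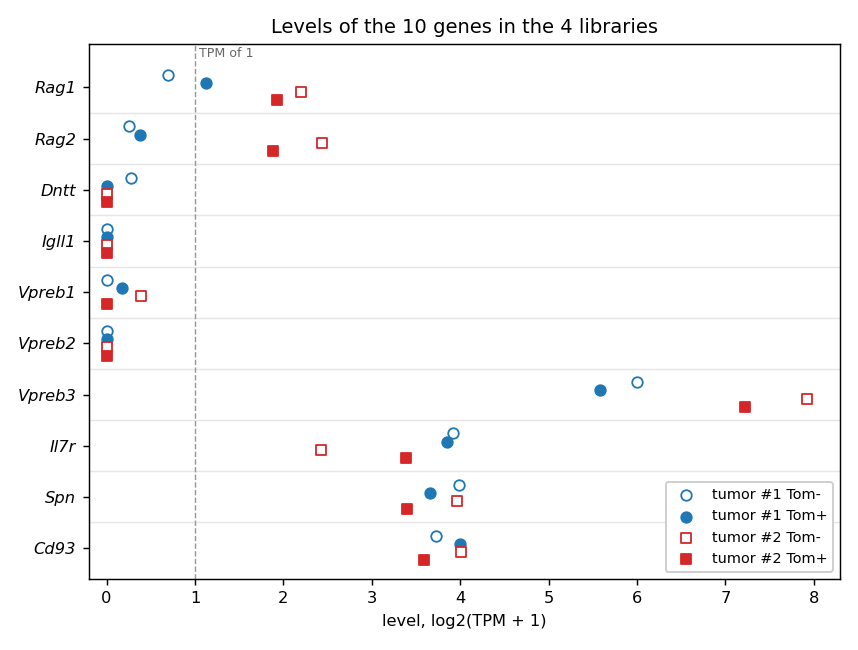
Level of each of the 10 genes as log2(TPM + 1) on the x axis, with 1 point per library (circles, tumor #1; squares, tumor #2; open, Tom-; filled, Tom+) and a dashed line at 1 TPM. Igll1, Vpreb1, Vpreb2 and Dntt lie below the line in all 4 libraries, and the squares of Vpreb3, Rag1 and Rag2 lie to the right of their circles.

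The sequences just upstream of the transcription start are shown for 4 genes that span this range, from Igll1, which was listed at 0, through Rag1 and Rag2 to Vpreb3. Each is the 250 bases before the RefSeq start on GRCm38.p6, 5′ to 3′ on the strand of the gene. RefSeq entries were found for 9 of the 10 genes, all but Cd93. Capitals mark matches on either strand to 5 short motifs of factors that act in B cell precursors or on immunoglobulin promoters, searched after the expression values had been seen. The motifs are CCCNNGGG (core of EBF1 sites), TGGGAA (Ikaros), TGTTTAC (FOXO), CAGGTG (an E-box bound by E2A) and ATTTGCAT (the octamer of immunoglobulin promoters). The windows are chr16:16863986-16864235 (minus strand) for Igll1, chr2:101649533-101649782 (minus strand) for Rag1, chr2:101624462-101624711 (plus strand) for Rag2 and chr10:75948050-75948299 (plus strand) for Vpreb3.
Igll1: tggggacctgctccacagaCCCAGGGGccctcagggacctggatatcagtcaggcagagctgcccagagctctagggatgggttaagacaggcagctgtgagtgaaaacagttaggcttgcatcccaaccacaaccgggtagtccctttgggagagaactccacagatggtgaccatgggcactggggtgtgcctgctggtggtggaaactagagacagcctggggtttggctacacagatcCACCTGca
Rag1: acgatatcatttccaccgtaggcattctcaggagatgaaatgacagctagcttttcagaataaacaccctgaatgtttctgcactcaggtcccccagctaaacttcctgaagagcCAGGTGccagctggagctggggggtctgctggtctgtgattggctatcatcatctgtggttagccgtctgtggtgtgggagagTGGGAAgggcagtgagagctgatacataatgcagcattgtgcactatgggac
Rag2: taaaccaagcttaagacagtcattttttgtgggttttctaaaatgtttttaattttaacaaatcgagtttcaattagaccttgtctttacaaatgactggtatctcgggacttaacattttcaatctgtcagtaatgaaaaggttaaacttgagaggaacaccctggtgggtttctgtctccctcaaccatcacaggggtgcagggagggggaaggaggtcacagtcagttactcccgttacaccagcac
Vpreb3: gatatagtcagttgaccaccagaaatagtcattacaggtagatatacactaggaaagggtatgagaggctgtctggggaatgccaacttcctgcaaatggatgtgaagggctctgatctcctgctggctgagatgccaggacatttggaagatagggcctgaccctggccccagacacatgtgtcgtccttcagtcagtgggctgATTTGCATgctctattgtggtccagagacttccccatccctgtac

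Among the 9 windows, CAGGTG was found in 4 (Rag1, Vpreb1, Vpreb2 and Igll1), where 17.2% of 32851 RefSeq windows of this length hold it. The octamer ATTTGCAT was found in 1 of the 9, that of Vpreb3, where its first base lies 45 bases upstream of the start, and 1.60% of all windows hold it. CCCNNGGG was found in 2 (Igll1 and Spn) against 11.8% of all windows, TGGGAA in 2 (Rag1 and Vpreb2) against 21.6%, and TGTTTAC in 0 against 3.17%. Matches were therefore found both in Igll1, Vpreb1 and Vpreb2, which were listed at or near 0, and in Rag1 and Vpreb3, which were expressed. The Rag2 window holds no match. A match describes letters in the window and was not tested as a binding site.

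Genes of the surrogate light chain were listed at or near 0 TPM in the sorted cells. Igll1 (ENSMUSG00000075370, chromosome 16, 16860671 to 16863985, minus strand), which encodes the λ5 chain, was listed at 0 TPM in all 4 libraries. Vpreb2 (ENSMUSG00000059280, chromosome 16, 17980428 to 17981273, plus strand) was also listed at 0 in all 4. Vpreb1 (ENSMUSG00000059305, chromosome 16, 16868403 to 16870843, minus strand) was listed at 0 in tumor #1 Tom-, 0.131 in tumor #1 Tom+, 0.306 in tumor #2 Tom- and 0 in tumor #2 Tom+ cells. Its nonzero values thus came from a Tom+ library in one tumor and a Tom- library in the other. The summed TPM of the 3 genes was at most 0.306 in any library, while Cd79a and Cd79b, which serve both the pre-B cell receptor and the mature receptor, were at 120 TPM or more. No test was made for these genes, since none reached 1 TPM in any library.

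Vpreb1 and Vpreb2 encode nearly the same protein, and a read cannot always be assigned to one of them. Their coding sequences in the reference transcripts are 426 bases each and differ at 9 positions (97.9% identity). The first 150 coding bases, which hold 3 of the differences, are printed to show how little separates the genes, with the differing bases in capitals. They lie within chr16:16868875-16869111 (minus strand) for Vpreb1 and chr16:17980565-17980801 (plus strand) for Vpreb2 of GRCm38, spans that also hold an intron.
Vpreb1: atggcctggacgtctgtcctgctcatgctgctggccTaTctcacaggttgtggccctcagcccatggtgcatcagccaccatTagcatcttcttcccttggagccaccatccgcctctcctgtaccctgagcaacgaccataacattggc
Vpreb2: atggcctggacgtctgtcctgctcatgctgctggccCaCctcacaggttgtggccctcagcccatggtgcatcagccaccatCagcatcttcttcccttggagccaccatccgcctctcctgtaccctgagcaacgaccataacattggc

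Of the 60-base stretches of the whole reference transcript of Vpreb1, 26.3% also occur in that of Vpreb2, and 50% of the 31-base stretches do. The sequenced reads were 60 bases long. The split of reads between Vpreb1 and Vpreb2 is therefore uncertain. The sum of the pair was 0, 0.131, 0.306 and 0 TPM in the order of the libraries above. Since TPM divides by length, this sum can still shift with the split (1199 exon bases for Vpreb1, 759 for Vpreb2). Vpreb1 also shares 108 of 1199 exon bases with Top3b, on the opposite strand, which was between 8.44 and 11.6 TPM. The coding sequence of Vpreb3 is 48.2% identical to that of Vpreb1. None of the 31-base stretches of the Vpreb1 transcript (0%) occurs in that of Vpreb3. The level of Vpreb3 thus does not rest on reads shared with Vpreb1 over this length.

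Dntt (ENSMUSG00000025014, chromosome 19, 41029275 to 41059525, plus strand) was listed at 0.208 TPM in tumor #1 Tom- cells and at 0 in the other 3 libraries. Genes of the joining machinery that act in every cell were expressed instead. All 21 genes of the list of V(D)J DNA ends and repair passed the filter on low values. The list holds end-joining factors, factors that sense DNA breaks, and Hmgb1 and Hmgb2. The summed TPM of the list was 1306 (Tom-) and 1404 (Tom+) for tumor #1, and 1167 (Tom-) and 1088 (Tom+) for tumor #2. Much of each sum came from Hmgb1, at 641, 691, 627 and 608 TPM in the same order. The other genes ran from 1.87 TPM (Nhej1, tumor #2 Tom-) to 217 TPM (Xrcc6, tumor #1 Tom+).

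Rag1 and Rag2, which lie next to each other on chromosome 2, were detected at low levels in all 4 libraries. Rag1 (ENSMUSG00000061311, chromosome 2, 101638282 to 101649501, minus strand) was at 0.613 in tumor #1 Tom-, 1.17 in tumor #1 Tom+, 3.61 in tumor #2 Tom- and 2.81 TPM in tumor #2 Tom+ cells. Rag2 (ENSMUSG00000032864, chromosome 2, 101624718 to 101632529, plus strand) was at 0.196, 0.295, 4.43 and 2.68 TPM in the same order. For both genes the libraries of tumor #2 lay above those of tumor #1 without overlap, whereas Tom+ and Tom- cells overlapped. Rag2 was below 1 TPM in both libraries of tumor #1. It passed the filter on low values, at least 1 TPM in at least 2 libraries, only through tumor #2. The difference of Rag2 between the tumors is therefore given as a description with no test. Rag1 reached 1 TPM in tumor #1 only in Tom+ cells (1.17 TPM), so it too needed tumor #2 to pass this filter. The test of Rag1 between the tumors is given with that limit.

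Another gene at this locus was far higher in tumor #2. B230118H07Rik, named here after its values were seen, is annotated as protein coding and covers both Rag genes on the minus strand (chromosome 2, 101560781 to 101649532). Its start lies 31 bases from that of Rag1, on the same strand. It was at 1.01 (Tom-) and 0.920 TPM (Tom+) for tumor #1, against 30.2 and 22.4 TPM for tumor #2. It shares 80 of 6608 exon bases with Rag1 on the same strand, and 208 of 3424 with Rag2 on the opposite strand. Whether reads from these shared bases enter the values of Rag1 and Rag2 was not tested. None of the exons of Dntt, Vpreb2, Vpreb3, Igll1, Il7r, Spn and Cd93 overlaps those of another gene.

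Vpreb3 (ENSMUSG00000000903, chromosome 10, 75943057 to 75949657, plus strand) was at 62.8 in tumor #1 Tom-, 46.7 in tumor #1 Tom+, 242 in tumor #2 Tom- and 148 TPM in tumor #2 Tom+ cells. Both libraries of tumor #2 were higher than those of tumor #1, and within each tumor the Tom- library was the higher one. The 3 protein-coding genes whose pattern over the 4 libraries was nearest to that of Vpreb3, among 10059 tested, were Nrxn2, Pitpnm1 and Eid1. The distance between centered log2(TPM + 1) profiles was 0.0996 for Nrxn2, 0.182 for Pitpnm1 and 0.189 for Eid1, where the distance of Vpreb3 from a flat profile was 1.88.

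Il7r (ENSMUSG00000003882, chromosome 15, 9505788 to 9530176, minus strand), the α chain of the interleukin-7 receptor, was at 14.1 in tumor #1 Tom-, 13.5 in tumor #1 Tom+, 4.39 in tumor #2 Tom- and 9.43 TPM in tumor #2 Tom+ cells. The libraries of tumor #2 lay below those of tumor #1, the opposite order to Rag1, Rag2 and Vpreb3. Il7r is also expressed by T cells. The summed TPM of 16 T cell markers was 9.92 and 7.47 in tumor #1 and 24.5 and 25.1 in tumor #2, largely from Lck, which B cells can also express (7.21, 4.25, 10.6 and 11.5). The 16 markers did not move as 1 group. Cd3d, Zap70 and Thy1 were higher in the libraries of tumor #2, whereas Trac was at 0.767 and 1.09 TPM in tumor #1 and listed at 0 in tumor #2, and Cd5 was at 0.138 and 0.112 against 0 and 0, the order of Il7r. Trbc1 and Trbc2 were listed at 0 in all 4 libraries. The part of T cells in the values of Il7r was not tested.

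Spn (ENSMUSG00000051457, chromosome 7, 127132232 to 127137823, minus strand) was at 14.8 in tumor #1 Tom-, 11.6 in tumor #1 Tom+, 14.6 in tumor #2 Tom- and 9.55 TPM in tumor #2 Tom+ cells. Within each tumor the Tom- library of Spn was the higher one, as in 29.5% of all tested genes. Cd93 (ENSMUSG00000027435, chromosome 2, 148436640 to 148443563, minus strand) was at 12.2, 15.0, 15.1 and 11.0 TPM in the same order, with overlap between Tom+ and Tom- cells and between the tumors. Both genes are expressed in other cell types as well. The summed TPM of 14 myeloid markers was 3.09 and 5.33 in tumor #1 and 28.3 and 25.3 in tumor #2, where it came mostly from Cybb (14.7 and 17.9) and Cd68 (4.58 and 6.41), and that of 10 stroma and endothelium markers, nearly all of it from Pecam1, was 15.1, 15.5, 51.0 and 45.0. In tumor #2 Tom- cells S100a8, S100a9 and Lyz2 were at 3.0, 2.41 and 1.41 TPM. Of the 14 myeloid markers, 4 were listed at 0 in all 4 libraries, Cd14 and Fcgr1 among them. The part of these cells in the values of Spn and Cd93 was not tested.

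To ask whether cells with a history of Cre activity differed in these genes, the Tom+ library of each tumor was set against its Tom- library. Differences are in log2(TPM + 1), a scale on which changes at low TPM appear too small, and a test was made for the 11339 genes with at least 1 TPM in at least 2 libraries. This filter kept 6 of the 10 genes, leaving out Dntt, Igll1, Vpreb1 and Vpreb2. None of the 6 differed between Tom+ and Tom- cells after Benjamini-Hochberg adjustment of limma's test (0 of 6), and 0% of all tested genes did. The smallest adjusted p over all genes was 0.936. At an unadjusted p below 0.05, 1 of the 6 genes, Vpreb3, passed, against 4.67% of all tested genes. It did not pass without a variance trend (unadjusted p = 0.0566) or without the tumor block (unadjusted p = 0.562).

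Vpreb3 was lower in Tom+ cells by 0.42 in tumor #1 and 0.71 in tumor #2 on the log2(TPM + 1) scale, an estimated Tom+ minus Tom- difference of -0.56 ± 0.15 (SE; unadjusted p = 0.0292, adjusted p = 0.936) in limma's test. For Spn the estimated difference was -0.45 ± 0.19 (SE; adjusted p = 0.936), from -0.33 in tumor #1 and -0.57 in tumor #2. These 2 of the 6 genes had lower values in the Tom+ library of both tumors, as did 29.5% of all tested genes, and 0 of the 6 had higher values in both. The plot of the Tom+ minus Tom- differences shows that both lie inside the range that holds the central 90% of all genes.

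The remaining 4 genes had opposite signs in the tumors. The Tom+ minus Tom- difference of Il7r was -0.06 in tumor #1 and 0.95 in tumor #2, with an estimate of 0.44 ± 0.34 (SE; adjusted p = 0.936). That of Rag1 was 0.43 and -0.27, with an estimate of 0.08 ± 0.30, and that of Rag2 was 0.12 and -0.56, with an estimate of -0.22 ± 0.30. Cd93 gave 0.28 and -0.42, with an estimate of -0.07 ± 0.26. For these 4 genes the spread between the tumors exceeded the estimated difference. The adjusted p was 0.989 for Rag1 and Cd93 and 0.949 for Rag2.

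**Figure D2:**
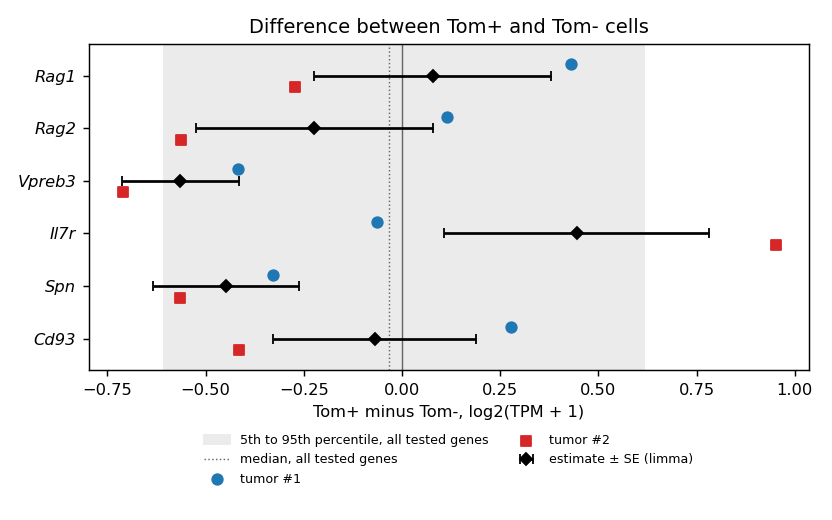
Tom+ minus Tom- difference in log2(TPM + 1) (x axis) of the 6 tested genes in tumor #1 (circles) and tumor #2 (squares), with limma's estimate ± SE (diamonds). The grey band holds the 5th to 95th percentile of the estimates of all 11339 tested genes and the dotted line is their median. Vpreb3 and Spn are negative in both tumors, and Il7r, Rag1, Rag2 and Cd93 have 1 value on each side of 0.

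Between the tumors, Vpreb3 differed, and the libraries of Rag1, Rag2 and Il7r did not overlap. Of the 6 genes, 1 had an adjusted p below 0.05, against 4.33% of all tested genes (491, of which 77.8% were higher in tumor #2; 59.1% with trimmed-mean scaling). At an unadjusted p below 0.05, 3 of the 6 passed, against 36.7% of all genes. The 3 include Rag1 and Rag2, which needed tumor #2 to pass the filter, so only the pass of Vpreb3 was not favored by it. Both libraries of tumor #2 lay above both of tumor #1 in 3 of the 6, again with Rag1 and Rag2, against 44.8% of all tested genes. They lay below in 1, against 23.7%. These counts of the 6 genes are a description, since Rag1 and Rag2 owe their place among the tested genes to tumor #2.

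Vpreb3 was higher in tumor #2 by 1.78 ± 0.15 (SE) on the log2(TPM + 1) scale, with a difference of 1.93 between the Tom- libraries and 1.64 between the Tom+ libraries and an adjusted p of 0.0464 in limma's test. The difference of Rag1 was 1.16 ± 0.30 (SE; unadjusted p = 0.0272, adjusted p = 0.10), and that of Rag2, without a test, was 2.18 between the Tom- and 1.51 between the Tom+ libraries, 1.84 on average. At these low levels the size depended on the scale: with a pseudocount of 0.1 the differences were 1.79 for Rag1 and 3.37 for Rag2, and after quantile normalization 0.66 and 1.30. The estimate of Il7r was -0.98 ± 0.34 (SE; adjusted p = 0.147), with -1.49 between the Tom- and -0.47 between the Tom+ libraries. Those of Spn, -0.14 ± 0.19, and Cd93, -0.07 ± 0.26, were within their errors (adjusted p = 0.629 and 0.874). The adjusted p of Vpreb3 ranged from 0.0344 to 0.183 over the alternative settings. It was above 0.05 in 5 of the 9 settings that kept all libraries, among these a pseudocount of 0.1 and quantile normalization (0.0539), and in 4 of the 4 with 1 library left out.

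The table as a whole was shifted upward in tumor #2. The median difference of all tested genes was 0.20 on the log2(TPM + 1) scale, and it was -0.01 after trimmed-mean scaling and -0.08 after quantile normalization. Relative to the median of 0.20, Vpreb3, Rag2 and Rag1 remained above and Il7r below. With trimmed-mean scaling the differences were 1.55 for Vpreb3 (adjusted p = 0.0439), 1.73 for Rag2, 1.01 for Rag1 and -1.19 for Il7r. The B230118H07Rik transcript at the Rag locus differed by 3.78 ± 0.22 (SE). In tumor #1 it reached 1 TPM only in Tom- cells (1.01 TPM), so it too needed tumor #2 to pass the filter. It was also named after its values were seen, and its difference is a description.

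**Figure D3:**
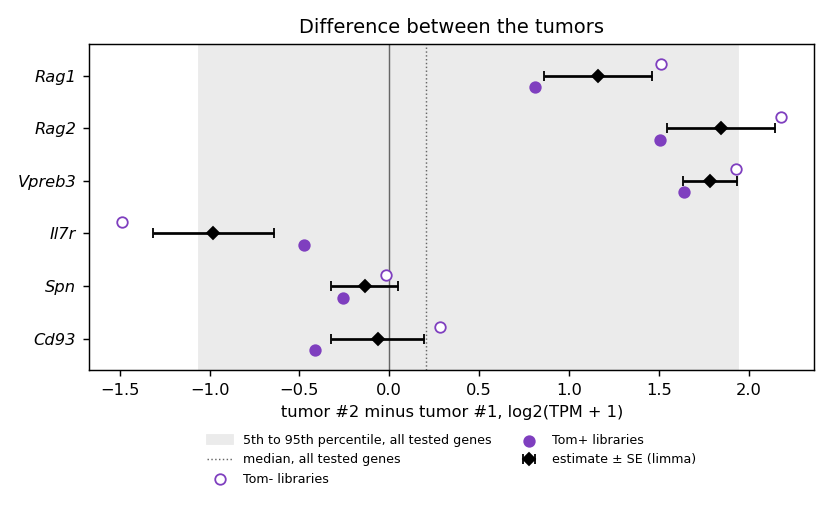
Tumor #2 minus tumor #1 difference in log2(TPM + 1) (x axis) of the 6 tested genes, between the Tom- libraries (open circles) and between the Tom+ libraries (filled circles), with limma's estimate ± SE (diamonds). The grey band holds the 5th to 95th percentile of the estimates of all 11339 tested genes and the dotted line is their median of 0.20. Vpreb3, Rag1 and Rag2 are positive in both kinds of cell, Il7r is negative in both, and the open and filled circles of Cd93 lie on opposite sides of 0.

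The factors that act with the 10 genes were described as lists. No gene of any of these lists had an adjusted p below 0.05 between Tom+ and Tom- cells (0% of all tested genes). Among the 21 genes of V(D)J DNA ends and repair, the median Tom+ minus Tom- difference was -0.06, against -0.03 over all tested genes. Rnf8, a ubiquitin ligase recruited to DNA breaks, was the 1 gene of the list with an unadjusted p below 0.05, at 10.9 (Tom-) and 16.3 TPM (Tom+) for tumor #1 and 8.0 and 17.5 TPM for tumor #2 (difference 0.79 ± 0.22 SE). Paxx, an end-joining factor, had a difference of -0.55 ± 0.21 SE.

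Between the tumors, 2 of the 21 repair genes were lower in tumor #2, against 0.961% of all tested genes, and 0 were higher, against 3.37%, with a list median of -0.11 against 0.20 over all genes. H2afx, the histone variant phosphorylated around DNA breaks, had 45.4 (Tom-) and 42.0 TPM (Tom+) for tumor #1, against 14.1 and 10.4 for tumor #2 (difference -1.77, adjusted p = 0.0480). Xrcc6, which encodes Ku70, a subunit of the complex that holds broken ends, had 205 and 217 TPM for tumor #1, against 89.5 and 88.2 for tumor #2 (-1.24, adjusted p = 0.0481). Both are used for the repair of DNA breaks in all cells. Their order between the tumors was the opposite of that of Rag1 and Rag2. The list did not move as 1 group. Both libraries of tumor #2 lay below both of tumor #1 in 8 of the 21, against 23.7% of all tested genes. They lay above in 4, against 44.8%. Among these were Dclre1c (7.18 and 6.23 TPM for tumor #1, 23.9 and 18.1 for tumor #2) and Paxx (difference 1.27).

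Of the 28 genes of IL-7 and pre-B cell receptor signaling, 25 were tested, and 16 of these had lower and 5 higher values in Tom+ cells of both tumors, against 29.5% and 21.6% of all tested genes, with a median difference of -0.07. By unadjusted p, 1 was higher and 1 lower. The higher one was Ccnd3, the D-type cyclin of pre-B cell division, at 33.1 (Tom-) and 47.4 TPM (Tom+) for tumor #1 and 42.3 and 66.7 TPM for tumor #2 (difference 0.58 ± 0.14 SE, unadjusted p = 0.0248). Its relative Ccnd2 had 17.7 (Tom-) and 7.43 TPM (Tom+) for tumor #2, against 0.249 and 0.134 TPM for tumor #1. Between the tumors 7 of the 25 were higher in tumor #2 (5 with trimmed-mean scaling), against 3.37% of all tested genes, and 0 lower, with a median of 0.64. Of the 7, Ccnd2 and Bcl2 passed the filter through tumor #2 alone, which leaves 5 whose call the filter did not favor. These 5 included Blk, a Src family kinase of the B cell receptor, with 7.78 and 5.15 TPM for tumor #1 against 65.3 and 56.6 for tumor #2 (3.07, adjusted p = 0.0444), the survival gene Mcl1 (1.54), and Cd79b (1.40) and Cd79a (1.28), the signaling chains of the receptor. After quantile normalization, 0 genes of these lists passed between the tumors, where 1 gene of the whole table did.

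Transcription factors of pro-B and pre-B cells had a median Tom+ minus Tom- difference of -0.10 over the 25 tested of 28, with 0 higher and 2 lower by unadjusted p. Ebf1, which specifies the B lineage, had 26.9 (Tom-) and 21.3 TPM (Tom+) for tumor #1 and 87.7 and 50.5 TPM for tumor #2, an order over the libraries like that of Vpreb3. Its Tom+ minus Tom- difference was -0.55 ± 0.19 SE (adjusted p = 0.936) and its tumor difference 1.44 (adjusted p = 0.0565). Irf4, which acts both in light chain rearrangement and in plasma cell differentiation, had a Tom+ minus Tom- difference of 0.57 ± 0.27 SE. Between the tumors 1 factor had an adjusted p below 0.05, against 4.33% of all tested genes, and it had passed the filter through tumor #1 alone, so that its values are a description. Lef1, a factor of pro-B and pre-B cell growth, was at 18.4 TPM in both libraries of tumor #1 and at 0.332 and 0.254 in tumor #2.

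Other surface and stage markers of precursors ranged from undetected to highly expressed. Of 21 such genes, 14 passed the filter and 5 were below 1 TPM in all 4 libraries. Kit, the stem cell factor receptor of pro-B cells, was listed at 0 in all 4, and Il2ra (CD25 of pre-B cells) was at most 0.827 TPM, and both are named after their values were seen. Cd24a, named in the same way, was between 463 and 532 TPM. In this list 0 genes differed between Tom+ and Tom- cells at an unadjusted p below 0.05 (median -0.06), and Slc7a5, an amino acid transporter subunit, had the largest of these differences, -0.31 ± 0.18 SE. Between the tumors 3 of the 14 were higher in tumor #2, against 3.37% of all tested genes, and 0 lower. Among them were Cd38 (2.56 and 3.02 TPM in tumor #1, 35.9 and 41.1 in tumor #2) and Ly6d (28.7 and 20.7, 141 and 127), both of which are also expressed by mature B cells.

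Some markers of mature B cells were higher in tumor #2, as Vpreb3 was. Of 21 genes 17 were tested, and 6 were higher in tumor #2, against 3.37% of all tested genes, and 0 lower, with a median difference of 1.61 against 0.20 over all genes. Among them was Ms4a1 (CD20), at 32.9 and 20.5 TPM in tumor #1 and 263 and 209 in tumor #2 (3.12 ± 0.16 SE). Others were the cytokine gene Ltb (3.18), Fcrl1 (2.71) and Cd22 (1.81). Ltb reached 1 TPM in tumor #1 only in Tom- cells (1.25 TPM), so like Rag1 it needed tumor #2 to pass the filter. The Vpreb3 difference of 1.78 was close to that median, and whether it follows the general level of B cell transcripts was not tested. Both libraries of tumor #2 lay above both of tumor #1 in 15 of the 17, against 44.8% of all tested genes. They lay below in 1, against 23.7%, which was H2-Ab1 (196 and 159 TPM in tumor #1, 152 and 126 in tumor #2). Cr2 and Fcer2a, at most 2.59 and 0.862 TPM in any library, did not pass the filter. Between Tom+ and Tom- cells the median of the mature markers was -0.25, with 10 of 17 lower in both tumors, against 29.5% of all tested genes, 1 of them, Ms4a1, at an unadjusted p below 0.05 (-0.49 ± 0.16 SE). Cxcr5, a homing receptor of follicular B cells, had the largest difference of the list between Tom+ and Tom- cells, 0.51 ± 0.34 SE. Ptprc, the B220 gene used in the sort, had a Tom+ minus Tom- difference of -0.35 ± 0.14 SE.

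Among markers of other cell types, 0 genes passed between Tom+ and Tom- cells and 3 between the tumors. Of these 3, Cybb and Hbb-bs passed the filter through 1 tumor alone, and their values are a description. Cybb, an oxidase subunit of phagocytes that B cells also express, had 0.397 (Tom-) and 0.256 TPM (Tom+) for tumor #1, against 14.7 and 17.9 for tumor #2. Pecam1, of endothelium and also of B cells, had 14.4 and 14.2 TPM for tumor #1, against 49.7 and 43.9 for tumor #2 (1.64, adjusted p = 0.0480). The globin gene Hbb-bs went the other way, with 18.8 and 16.1 TPM for tumor #1, against 0 and 0.699 for tumor #2. These genes separated the tumors as Vpreb3, Rag1, Rag2 and Il7r did, and the part of such cells in the members' values was not tested. Of the T cell genes, Cd3d was at 7.77 TPM in tumor #2 Tom- cells and at 2.09 TPM or less in the other libraries, while Thy1 had a Tom+ minus Tom- difference of 0.38 ± 0.25 SE. The differences were 0.61 ± 0.24 SE for Cd68, -0.56 ± 0.24 SE for Hbb-bt, 3.79 ± 1.55 SE for Jchain and -0.64 ± 0.44 SE for Derl3, and none of these had an adjusted p below 0.05.

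**Figure D4:**
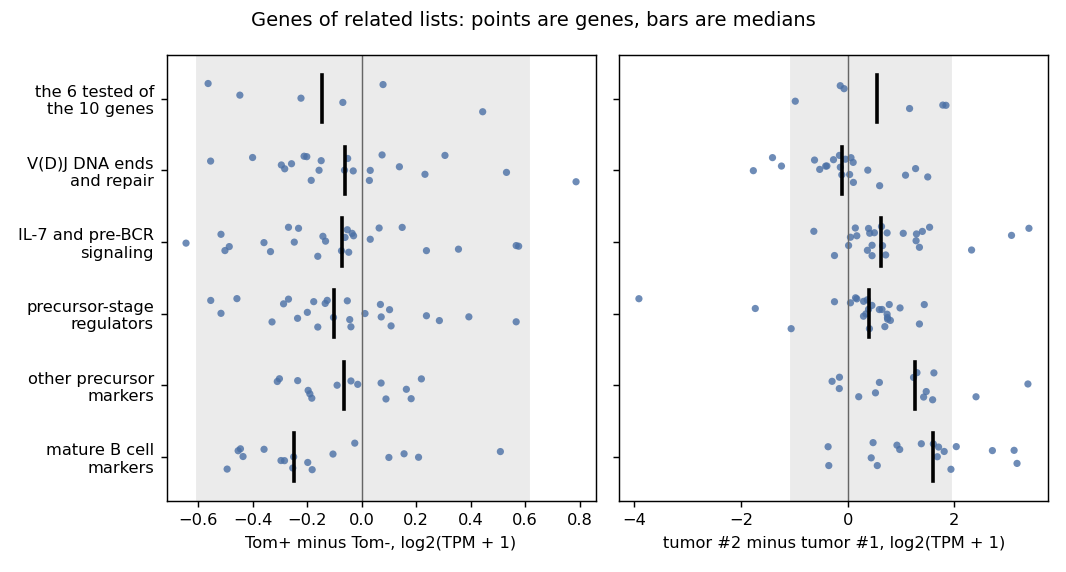
Differences in log2(TPM + 1) of the tested genes of 6 lists (points), the 10 genes, V(D)J DNA ends and repair, IL-7 and pre-B cell receptor signaling, precursor-stage regulators, other precursor markers and mature B cell markers, with the list medians (bars), Tom+ minus Tom- on the left and tumor #2 minus tumor #1 on the right. The grey bands hold the 5th to 95th percentile of all 11339 tested genes. The medians of these 6 lists between Tom+ and Tom- cells lie between -0.25 and -0.06, and those between the tumors run from -0.11 for V(D)J DNA ends and repair to 1.61 for mature B cell markers.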

How the data were processed

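RNA-seq of B220+ IgM+ Tom+ and Tom- splenocytes of 2 mice gave 4 libraries. Per the study's methods, Cutadapt was applied to 60-base single reads and transcripts of GRCm38 were quantified by Salmon (Salmon 1.9 and CASAVA 1.8 in the submitters' processing notes). The authors deposited TPM per gene. The strandedness of the libraries is not given in the sources used here, and the depth is unknown. Positions and exon overlaps came from GENCODE M21 on GRCm38, and upstream windows from RefSeq on GRCm38.p6.

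Values were analyzed as log2(TPM + 1) for genes with at least 1 TPM in at least 2 libraries. limma 3.58.1 in R 4.3.3 was used in a model of Tom status and tumor with trended empirical Bayes variances (residual degrees of freedom 1, prior degrees of freedom 2.21), two-sided, with Benjamini-Hochberg adjustment over all 11339 genes and a threshold of 0.05. The authors' paired edgeR test needs counts and was not run. Both libraries of a tumor came from the same mouse, which is why tumor was kept as a block. Across genes, which are not independent replicates, their deviations from the group means correlated (Pearson's r = 0.626, Spearman's rho = 0.669). Within a group the 2 libraries come from separate mice. Tables and plots were made with Python 3.11.15, pandas 2.3.3, numpy 2.4.6 and matplotlib 3.10.9.

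The members and the lists were chosen with earlier results of these data known. Named genes were all 10 members, in each list the genes past the adjusted threshold in either comparison (at most 4, smallest p first) and the 2 with the largest absolute Tom+ minus Tom- difference, and the 3 genes nearest in pattern to the member with the highest mean TPM. Some genes that this rule names are not reported here. B230118H07Rik, Top3b, Cd24a, Kit, Il2ra, Hmgb1, Hmgb2, Nhej1, Dclre1c, H2-Ab1, Cr2, Fcer2a and the cell type markers given at 0 were named after their values were seen. Alternatives were a pseudocount of 0.1 or 0.5, and scaling by a trimmed mean, quantiles, or without immunoglobulin genes. Others were a filter on mean TPM (at least 5) or none, and untrended variances. The rest were no replicate block (no tumor block, or between the tumors no Tom status), and each library, tumor or kind of cell left out.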

Additional observations from a re-analysis of the deposited data

How the results depend on the processing

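Between Tom+ and Tom- cells, 0 genes passed the adjusted threshold under every alternative run. In the fit reported above, 530 had an unadjusted p below 0.05, and this count was 140 with no replicate block and 113 to 256 with 1 library left out. Vpreb3, the 1 of the 10 genes among the 530, did not pass without the tumor block (unadjusted p = 0.562), without a variance trend (unadjusted p = 0.0566) or with any 1 library left out (unadjusted p from 0.135 to 0.797). Between the tumors, the adjusted count of 491 became 1 with a pseudocount of 0.1, 1 with no filter, 34 at a mean TPM of at least 5, 1 with quantile normalization, 940 without immunoglobulin genes, 275 with no variance trend, 2231 with no replicate block and 0 with any 1 library left out. The count at an unadjusted p ranged from 2705 to 4148 with 1 library left out. Of the 10 genes, 1 passed (Vpreb3). This count was 0 with a pseudocount of 0.1, a mean TPM of at least 5, no filter, quantile normalization, no variance trend, or any 1 library left out, and 2 with no replicate block, where the other is Rag2, which passed the filter only through tumor #2. Rag1, at an unadjusted p below 0.05, did not pass with no filter (unadjusted p = 0.0501), with quantile normalization (unadjusted p = 0.0949) or without tumor #1 Tom- (unadjusted p = 0.0534). The cause of these shifts was not tested. In the comparison of the tumors, the fit with no replicate block leaves out Tom status instead of tumor. With 1 library left out, only a fit without the tumor block, or between the tumors without Tom status, is possible. Its arms hold unequal shares of the tumors or, between the tumors, of Tom+ and Tom- libraries. The lone library is assumed to vary like the others. Under these fits, or with 1 tumor left out, the Tom+ minus Tom- difference ranged from -0.68 to 0.84 for Rag1, -1.31 to 0.87 for Rag2, -1.53 to 0.40 for Vpreb3, -0.30 to 1.19 for Il7r and -0.42 to 0.28 for Cd93. The difference between the tumors ranged from -0.42 to 0.15 for Spn and -0.41 to 0.28 for Cd93. Vpreb3, Rag1, Rag2 and Il7r kept the sign of their difference between the tumors in every setting run, and Spn that between Tom+ and Tom- cells. The unknown depth limits what a value of 0 says about Igll1, Vpreb1, Vpreb2 and Dntt.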
